A study of Danio rerio and Aquarana catesbeiana with 12 samples.

Results

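The genes described here are those of vitamin D activation, breakdown and sensing in the zebrafish retinal pigment epithelium (RPE), the pigmented cell sheet behind the photoreceptors: the hydroxylases cyp24a1, cyp27b1 and cyp2r1 and the receptors vdra and vdrb. They were chosen by symbol, with the large hormone difference of cyp24a1 already known, so their hormone differences are given as values without a test. Of the 5 symbols, 4 were found among the 18315 transcript records of the zebrafish table, each on 1 record, and cyp2r1 was not analysed here. The samples were dissected RPE of zebrafish given thyroid hormone (TH) for 3 weeks and of zebrafish given a vehicle for the same time, with 3 libraries in each group. The labels give no strain, age, sex or dose, and do not say whether a library came from 1 fish or several, so the spread between libraries may be partly technical. The series also holds bullfrog RPE, which was not used because its contigs carry no gene names.

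Vitamin D becomes a hormone in a pair of hydroxylation steps, carried out in the body by CYP2R1 and its relatives at carbon 25 and by CYP27B1 at carbon 1. CYP24A1 hydroxylates the side chain at carbon 24, which starts the breakdown of both the hormone and its precursor. The hormone acts through the vitamin D receptor, a nuclear receptor that binds DNA with a retinoid X receptor (RXR), and in mammals CYP24A1 is among the genes it induces most strongly. Zebrafish carry a pair of receptor genes, vdra and vdrb, left from the genome duplication of teleost fishes. Human RPE cells in culture are known to express the receptor and the hydroxylases.

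Total counts per library ran from 6647597 to 12530697 with hormone and from 10582772 to 11739178 with vehicle, the lowest being hormone replicate 1. In the fit over all records, edgeR's quasi-likelihood test with Benjamini-Hochberg adjustment, 1 of 18315 records (0.00546%) had an adjusted p under 0.05, 1260 (6.88%) had an unadjusted p under 0.05, and DESeq2 called 292. The first principal component held 50.3% of the variance of the libraries and did not separate the groups, and the second held 20.7% and did. Of the RPE markers, 17 of the 18 listed genes were measured and none was at 0 in any library, and so were 13 of 15 rod genes and 21 of 21 genes of inner retina neurons and Muller glia. The levels below are thus those of dissected tissue, in which fewer cells of a type and less RNA per cell cannot be told apart.

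The gene of the inactivating enzyme, cyp24a1, was far more abundant in hormone-treated RPE. It stood at 158.9, 366.7 and 525.6 CPM (a gene's reads over the TMM-scaled size of its library) in hormone replicates 1 to 3, against 11.98, 14.97 and 46.59 CPM in vehicle replicates 1 to 3. The groups did not overlap, and hormone replicate 1, the lowest on its side, still exceeded vehicle replicate 3, the highest on the other, by 3.41-fold. Of all records, 6.86% had every hormone library above every vehicle library. These levels rested on 1191, 4441 and 5104 counts with hormone, against 151, 166 and 466 counts with vehicle. The fitted log2 fold change was 3.84 (SE 0.69), or 14.3-fold, which placed cyp24a1 at rank 5 of 18315 records by log2 fold change, cyp27c1 being at rank 2.

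Both groups varied widely in cyp24a1. The highest hormone library was 3.31-fold above the lowest, and the highest vehicle library 3.89-fold above the lowest, while counting alone gives a coefficient of variation (CV) of 1.4 to 2.9% with hormone and 4.63 to 8.14% with vehicle. The biological CV of the fit, the spread between libraries of a group beyond counting, was 52.5% for cyp24a1. It was larger than that of 98.5% of the 670 records within 0.5 log2 CPM of its abundance, whose median was 19.8%. Vehicle replicate 3 stood apart from the other vehicle libraries in cyp24a1, and without it the fitted difference was 26.2-fold (log2 fold change 4.71). Without hormone replicate 3, the highest library, it was 10.7-fold (log2 fold change 3.43).

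**Figure D1:**
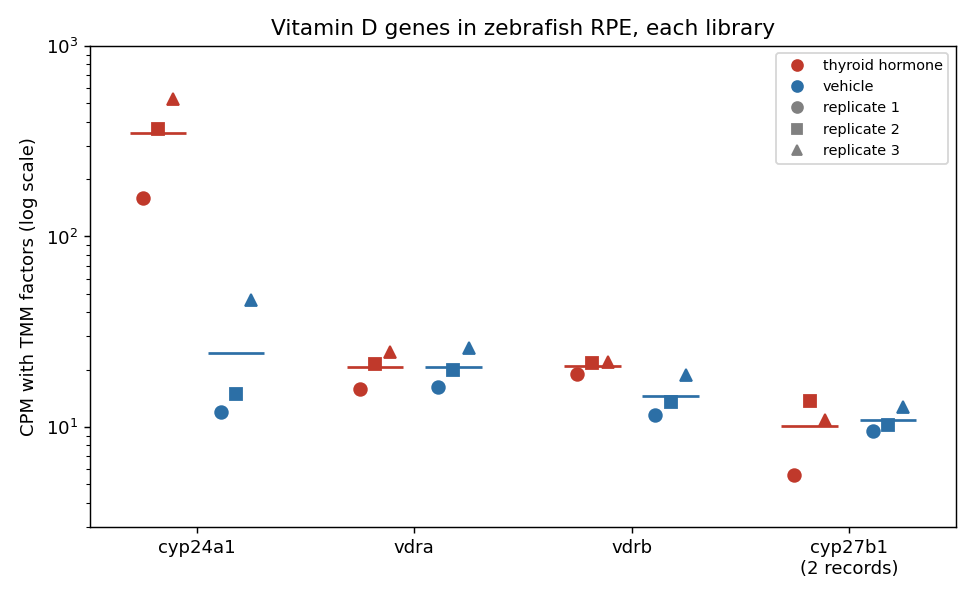
CPM with TMM factors on a log axis for cyp24a1, vdra, vdrb and cyp27b1 (both of its records summed); each point is 1 library and each line a group mean of 3 libraries. For cyp24a1 the hormone libraries lie between 158.9 and 525.6 CPM and the vehicle libraries between 11.98 and 46.59, while for vdra and cyp27b1 the groups overlap.

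The gene of the activating enzyme, cyp27b1, showed no such difference. The file lists it on an Ensembl transcript of 1521 bases and, without the symbol, on a predicted RefSeq transcript of 1515 bases (LOC793309), which is the gene that RefSeq now names cyp27b1. The Ensembl record had 21, 90 and 49 counts with hormone, against 50, 61 and 66 with vehicle, and the RefSeq record had 21, 76 and 57 with hormone, against 70, 53 and 62 with vehicle. Over all libraries the Ensembl record held 337 of 676 counts, or 49.9% (95% Wilson interval 46.1 to 53.6%, for counting error only), and the interval of each library included an even split. Such a split leaves the level of either record alone uncertain, so the sum of both stands beside it.

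Summed over both records, cyp27b1 stood at 5.60, 13.7 and 10.9 CPM in hormone replicates 1 to 3, against 9.52, 10.3 and 12.8 CPM in vehicle replicates 1 to 3. The hormone libraries took both the lowest and the highest place, so the groups overlapped. The log2 fold change was -0.10 (SE 0.33) for the sum and -0.05 (SE 0.39) for the Ensembl record. At 2 SE to each side the sum spanned -0.76 to 0.56, so a difference within that span, in either direction, is compatible with these libraries. With 3 libraries in each group such a span is narrower than a 95% interval. The biological CV of the sum was 30.2%, and hormone replicate 1, with 42 counts and a counting CV of 15.4%, set the low end. The direction for the Ensembl record turned with 1 library left out, its log2 fold change running from -0.43 to 0.23.

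The receptor gene vdra was at nearly the same mean level in both groups. It stood at 15.9, 21.3 and 24.6 CPM in hormone replicates 1 to 3, against 16.2, 20.0 and 26.1 CPM in vehicle replicates 1 to 3. The spread within each group, a 1.55-fold range with hormone and 1.61-fold with vehicle, exceeded the gap between the means of 20.6 ± 4.41 and 20.77 ± 4.999 CPM (SD, n = 3 each). The log2 fold change was -0.01 (SE 0.24), and it ran from -0.16 to 0.19 with 1 library left out.

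Its duplicate vdrb stood higher with hormone by a small margin. It had 19.1, 21.6 and 21.9 CPM in hormone replicates 1 to 3, against 11.5, 13.5 and 18.8 CPM in vehicle replicates 1 to 3, with group means of 20.9 ± 1.55 and 14.6 ± 3.77 CPM (SD, n = 3 each). The groups did not overlap, but 6.86% of all records also had every hormone library above every vehicle library. Hormone replicate 1 was above vehicle replicate 3 by a ratio of only 1.02, with 143 counts against 188. Their counting CVs were 8.36% and 7.29%, so these libraries did not differ beyond counting error. The log2 fold change was 0.52 (SE 0.21), or 1.43-fold. It ran from 0.37, without vehicle replicate 1, to 0.74, without vehicle replicate 3.

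The receptor genes were also set against each other within each library, without a test. At 2 SE to each side their log2 fold changes spanned -0.488 to 0.472 for vdra and 0.0981 to 0.935 for vdrb. These spans are descriptions, narrower than 95% intervals in this fit, so the place of 0 in them is no test. Both genes were read in the same libraries, so the overlap of these spans does not show whether their differences are alike. Per length, vdrb stood at 1.32, 1.11 and 0.98 times vdra in hormone replicates 1 to 3, against 0.78, 0.75 and 0.79 times in vehicle replicates 1 to 3. The ratio was below 1 in every vehicle library and in hormone replicate 3, and above 1 in hormone replicates 1 and 2. It did not overlap between the groups, the nearest libraries being at 0.98 with hormone and 0.79 with vehicle. The share of other gene pairs apart in this way was not computed, and vdrb alone already had groups apart. The receptors together came to 24.6, 30.0 and 32.5 RPKM (CPM per kilobase of transcript) with hormone, against 19.2, 23.2 and 31.1 RPKM with vehicle, and these ranges overlapped. Their biological CVs, 23.8% for vdra and 21.6% for vdrb, lay near the medians of 20.1% and 20.5% among records of like abundance, unlike that of cyp24a1.

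Compared per length, the order of the genes was not the same in all libraries. With hormone, cyp24a1 came first in every library, at 74.1 to 245 RPKM, followed by the receptors at 10.6 to 16.4 RPKM and cyp27b1 (both records) at 3.68 to 9.01 RPKM. With vehicle, vdra led in replicates 1 and 2, and cyp24a1 led in replicate 3 at 21.7 RPKM, against 5.59 and 6.98 RPKM in the other two. The vehicle means were 13.8 ± 3.33 RPKM for vdra, 11.4 ± 8.95 for cyp24a1, 10.7 ± 2.76 for vdrb and 7.14 ± 1.13 for cyp27b1 (SD, n = 3 each). In this order cyp24a1 did not differ from either receptor beyond its own spread, while vdra was above vdrb in every vehicle library.

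Among the 43 measured cytochrome P450 genes, cyp24a1 ranked 2 per length in all 3 hormone libraries, behind cyp27c1, against ranks of 16, 14 and 7 in vehicle replicates 1 to 3. With both records summed, cyp27b1 ranked 18, 11 and 14 with hormone, against 15, 15 and 12 with vehicle. Among 64 nuclear receptor genes the vitamin D receptors lay mid-table: vdra ranked between 25 and 36 with hormone and between 24 and 34 with vehicle, and vdrb between 26 and 31 with hormone and between 30 and 39 with vehicle.

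The balance of the breakdown gene against the activation gene within a library differed between the groups. The level of cyp24a1 per length was 20.1, 19.0 and 34.2 times that of cyp27b1 (both records) in hormone replicates 1 to 3, against 0.89, 1.03 and 2.58 times in vehicle replicates 1 to 3. Against the summed receptors, cyp24a1 stood at 3.02, 5.71 and 7.55 times with hormone and at 0.29, 0.30 and 0.70 times with vehicle. Neither ratio overlapped between the groups, and in both vehicle replicate 3 was the highest vehicle library. Both ratios hold cyp24a1, whose hormone difference was known beforehand, so their separation restates that difference and is no further result.

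**Figure D2:**
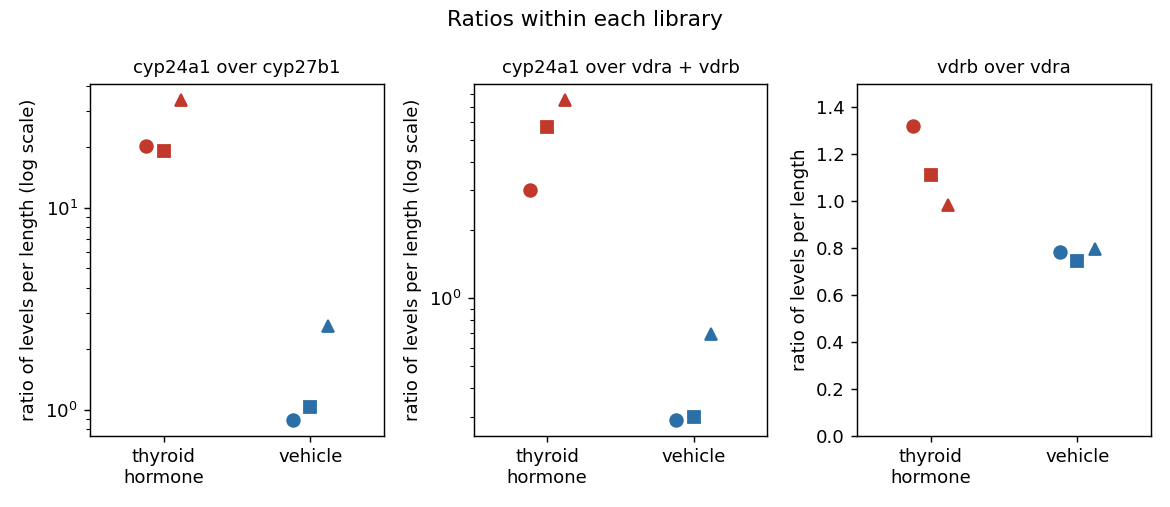
Ratios of levels per length within each library (points, 3 per group) for cyp24a1 over cyp27b1 with both records summed, cyp24a1 over the summed receptors (both on log axes) and vdrb over vdra (linear axis from 0). The hormone libraries lie above the vehicle libraries in all 3 panels, by the least in vdrb over vdra, at 0.98 against 0.79 for the nearest libraries. The share of other gene pairs with ratios apart was not computed, and 13.3% of all single records had groups apart.

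The mitochondrial P450 gene cyp27c1, whose enzyme desaturates vitamin A1 to A2, belongs to the same family as cyp27b1 and stood at 1252, 3434 and 2592 RPKM in hormone replicates 1 to 3, against 70.3, 83.4 and 47.5 RPKM in vehicle replicates 1 to 3. It was 16.9, 20.1 and 10.6 times cyp24a1 per length with hormone, against 12.6, 11.9 and 2.18 times with vehicle. Hormone replicate 1 was the lowest hormone library in both genes. The order of the other libraries differed: vehicle replicate 3 was the lowest library in cyp27c1 and the highest vehicle library in cyp24a1, and among the hormone libraries replicate 2 was highest in cyp27c1 and replicate 3 in cyp24a1.

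The marker lists are given beside cyp24a1. The 17 measured RPE markers summed to 22360, 61620 and 51230 CPM with hormone, against 20260, 19790 and 21250 CPM with vehicle. A single gene, rpe65a, whose enzyme is the isomerase of the visual cycle, held a large part of it, at 12450, 32330 and 26090 CPM with hormone, against 7480, 7211 and 6688 CPM with vehicle. The sum of all 17 did not overlap between groups, but that of the other 16 did, at 9905, 29280 and 25140 CPM with hormone, against 12780, 12580 and 14560 CPM with vehicle. In hormone replicate 1, 14 of the 17 markers were below every vehicle library, and the mean log2 CPM of the list was 7.46, 8.85 and 8.63 with hormone, against 7.90, 7.90 and 8.12 with vehicle. Of the 17, 1 (rpe65a) had all hormone libraries above all vehicle libraries, against 6.86% of all records. In 1 other, best1, all hormone libraries were below all vehicle libraries, against 6.40% of all records. It stood at 210, 483 and 477 CPM with hormone, against 592, 582 and 870 CPM with vehicle. The 13 measured rod markers summed to 46770 to 57500 CPM with hormone, against 69130 to 81860 with vehicle. A large part was rho, at 25000, 29400 and 37600 CPM with hormone, against 41700, 38100 and 52800 CPM with vehicle. The mean log2 CPM of the rod list overlapped, at 10.1, 9.43 and 9.7 with hormone, against 10.1, 10.1 and 9.93 with vehicle. Of the 13, 4 had all hormone libraries below all vehicle libraries, against 6.40% of all records. The 21 inner retina markers summed to 1182 to 2214 CPM with hormone, against 1285 to 1921 with vehicle. Per 1000 CPM of RPE markers, cyp24a1 stood at 7.11, 5.95 and 10.3 CPM with hormone, against 0.59, 0.76 and 2.19 with vehicle. Per 1000 CPM of the 16 markers other than rpe65a, a measure chosen after seeing the data, it stood at 16.0, 12.5 and 20.9 CPM with hormone, against 0.94, 1.19 and 3.20 with vehicle. Neither measure overlapped between the groups. Both rescale cyp24a1, whose hormone difference was known beforehand, so this is a description and no further result.

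Markers of other tissues that could be carried along were all above 0 in every library. Those of sclera, cartilage and bone (13 of 23 measured) summed to 164.5 to 257.5 CPM with hormone, against 224.4 to 293.6 with vehicle, and those of blood (19 of 20) to 964.5 to 1758 CPM with hormone, against 1488 to 4228 with vehicle. Those of lens and cornea (4 of 10) summed to 203.6, 1537 and 105.2 CPM with hormone, against 179.3, 181.3 and 970.8 CPM with vehicle, with 1 high library in each group. The measured genes of that list were krt5, krt4, krt91 and epcam. None of its lens genes, the crystallins, bfsp2 and lim2.1, was measured, so the sum does not cover lens. Vehicle replicate 3, the vehicle library with the most cyp24a1, was the highest vehicle library in these 3 lists. It was also the highest in markers of muscle and of iridophores and xanthophores. In choroid vessel markers it stood at 29.09 CPM, against 31.49 and 25.35 in vehicle replicates 1 and 2. In cone markers it was the lowest vehicle library, at 12310 CPM, against 18640 and 15330. It was also lowest in inner retina markers, at 1285 CPM, against 1921 and 1628. In the RPE sum it was the highest vehicle library, at 21250 CPM, against 20260 and 19790. The rod sum was likewise highest there, at 81860 CPM, against 74690 and 69130. The mean log2 CPM of the rod list was instead the lowest with vehicle, at 9.93. Hormone replicate 3, the library with the most cyp24a1 of all, was the lowest of all libraries in blood markers and in lens and cornea markers. Its sclera sum, 251.5 CPM, and its iridophore and xanthophore sum, 644.4 CPM, lay between those of the other hormone libraries. The part of cell composition in the values of cyp24a1 was not tested.

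**Figure D3:**
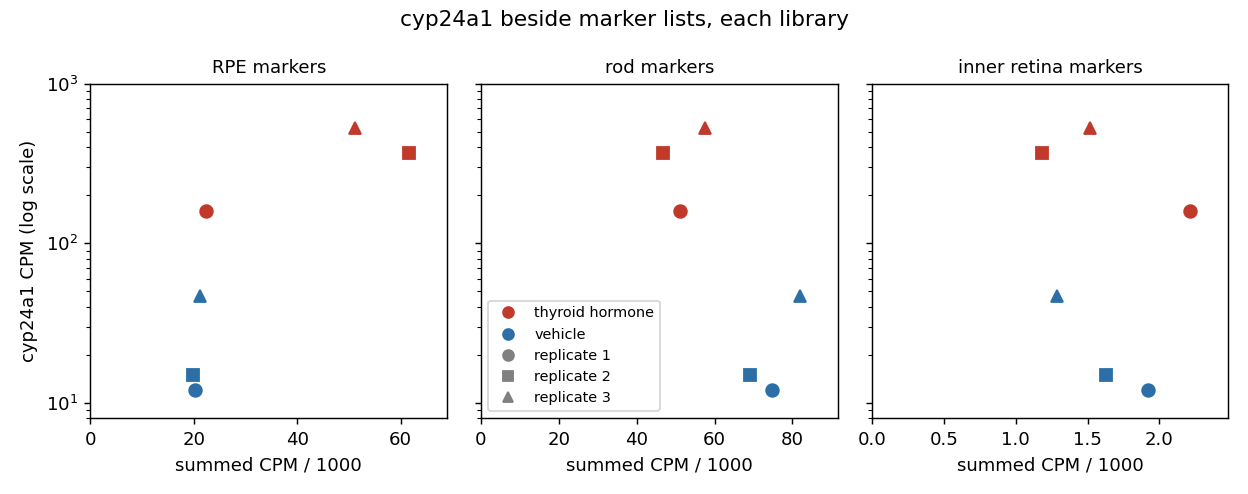
CPM of cyp24a1 on a log axis against the summed CPM, divided by 1000 on a linear axis, of the RPE, rod and inner retina marker lists; each point is 1 library. The RPE sums are 22360, 61620 and 51230 CPM in hormone replicates 1 to 3, of which 12450, 32330 and 26090 are rpe65a. These libraries have 158.9, 366.7 and 525.6 CPM of cyp24a1. With vehicle the RPE sums are 19790 to 21250 CPM, with at most 46.59 CPM of cyp24a1.

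Beyond these genes, 58 other genes of vitamin D supply, action and targets were measured, from 104 listed symbols, some of which are aliases. None passed edgeR's quasi-likelihood test at an adjusted p under 0.05, against 0.00546% of all records. At an unadjusted p under 0.05, 3 were higher with hormone, against 3.70% of all records, and 3 lower, against 3.18% of all records, together 10.3% of the 58. Of the 58, 30 had a log2 fold change above 0, against 51.7% of all records, and the median was 0.02 against 0.01 over all records. All hormone libraries were above all vehicle libraries in 3 of the 58, against 6.86% of all records, and below them in 3, against 6.40% of all records; the groups were thus apart in 10.3% of the 58 and in 13.3% of all records. DESeq2 called 2 of them, ncor1 and cyp27a1.1 (cyp27a7 in the file), against 1.60% of all records.

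Among the DNA binding partners, 5 RXR genes were measured and none passed. The groups were apart in 20.0% of them, against 13.3% of all records. The gene rxraa stood at 22.9, 25.8 and 22.3 CPM with hormone, against 30.5, 30.6 and 39.1 CPM with vehicle, lower in every hormone library (log2 fold change -0.49, SE 0.15; edgeR adjusted p = 0.552). The most abundant partner per length was rxrba, at a mean of 53.4 RPKM with hormone and 55.0 with vehicle (log2 fold change -0.04). For rxrbb, rxrga and rxrgb the log2 fold changes were 0.04, 0.29 and 0.43, and all 3 overlapped between groups; the direction of rxrba and rxrbb turned when a library was left out.

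None of the 12 measured coregulators of the receptor passed edgeR. The groups were apart in 16.7% of them, against 13.3% of all records. The corepressor gene ncor1 stood at 1800, 1840 and 1730 CPM with hormone, against 1070, 1170 and 1120 CPM with vehicle (log2 fold change 0.68 with an SE of 0.18; edgeR adjusted p = 0.412; DESeq2 adjusted p = 3.94e-11). The coactivator gene ncoa1, named with its values in view, was the other coregulator with groups apart, at 97.4, 96.6 and 87.3 CPM with hormone, against 80.7, 79.7 and 74.6 CPM with vehicle.

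The hydroxylases need electrons, which the ferredoxins and ferredoxin reductase pass to the mitochondrial enzymes and P450 oxidoreductase to the microsomal ones. None of the 6 measured carriers passed, against 0.00546% of all records, and none had groups apart, against 13.3% of all records. The ferredoxin gene fdx1 stood at 35.5, 52.5 and 52.8 CPM with hormone, against 37.6, 36.3 and 43.9 CPM with vehicle (log2 fold change 0.26, SE 0.19). The reductase gene fdxr (LOC100536115 in the file) stood at 35.9, 102 and 103 CPM with hormone, against 52.3, 50.4 and 62.5 CPM with vehicle, hormone replicate 1 being below every vehicle library (log2 fold change 0.55, SE 0.39). The other carriers, fdx2 (fdx1l in the file), por, cyb5r3 and cyb5a, had log2 fold changes of -0.15, -0.20, -0.11 and 0.39.

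Of 8 measured genes of precursor synthesis, uptake and other 25-hydroxylation, none passed. The groups were apart in 12.5% of them, against 13.3% of all records. An unadjusted p under 0.05 in edgeR was reached by 12.5%, against 6.88% of all records. The uptake receptor megalin, lrp2a (lrp2 in the file), which takes up vitamin D with its binding protein in the mammalian kidney, was abundant, at 628, 941 and 815 CPM with hormone, against 584, 543 and 663 CPM with vehicle (log2 fold change 0.41 with an SE of 0.21; edgeR adjusted p = 0.808). The gene dhcr7, whose enzyme turns the vitamin D precursor into cholesterol, had a log2 fold change of -0.15 (SE 0.19). The cyp27a1.1 record (cyp27a7 in the file), a relative of the mammalian 25-hydroxylase CYP27A1 and picked out by its values, stood at 15.2, 16.5 and 15.2 CPM with hormone, against 26.3, 24.4 and 25.1 CPM with vehicle (log2 fold change -0.69 with an SE of 0.13; edgeR adjusted p = 0.228; DESeq2 adjusted p = 0.00114). It was lower in every hormone library with little spread in either group, and was the 1 gene of this list with groups apart.

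Genes reported as vitamin D targets in mammals or fish showed no common direction. Of 21 measured, 10 lay above 0 and 11 below it on the log2 fold change scale, with a median of -0.05. At an unadjusted p under 0.05 in edgeR (6.88% of all records), 1 gene was higher and 1 lower, together 9.52% of the 21. These, named after their values were seen, were the cytokine gene tgfb1a, at 5.34, 2.06 and 2.47 CPM with hormone against 0.87, 0.90 and 2.0 with vehicle, and the phosphate transporter gene slc20a1a, at 11.2, 26.9 and 20.4 CPM with hormone against 34.5, 28.0 and 44.3 with vehicle (edgeR adjusted p = 0.685 and 0.684). The calcium buffer gene calb1 was near the limit of the table, at 5.07, 0.66 and 1.65 CPM with hormone, against 2.46, 2.44 and 1.0 with vehicle, and its direction turned without hormone replicate 1. Records of trpv6, the calcium channel gene, and of fgf23 were not analysed here.

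Of the calcium and phosphate hormones and their receptors, 6 genes were measured and none passed. An unadjusted p under 0.05 in edgeR was reached by 16.7% of them, against 6.88% of all records. The parathyroid hormone receptor gene pth1r (pth1ra in the file) stood at 2.0, 0.66 and 1.13 CPM with hormone, against 2.78, 2.44 and 1.0 CPM with vehicle (log2 fold change -0.75, SE 0.56). The growth factor receptor gene fgfr1b, named after its values were seen, was the 1 gene with an unadjusted p under 0.05, at 22.8, 52.1 and 34.4 CPM with hormone, against 11.9, 17.4 and 25.9 CPM with vehicle, with overlapping groups (log2 fold change 0.99, SE 0.38; edgeR adjusted p = 0.684).

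**Figure D4:**
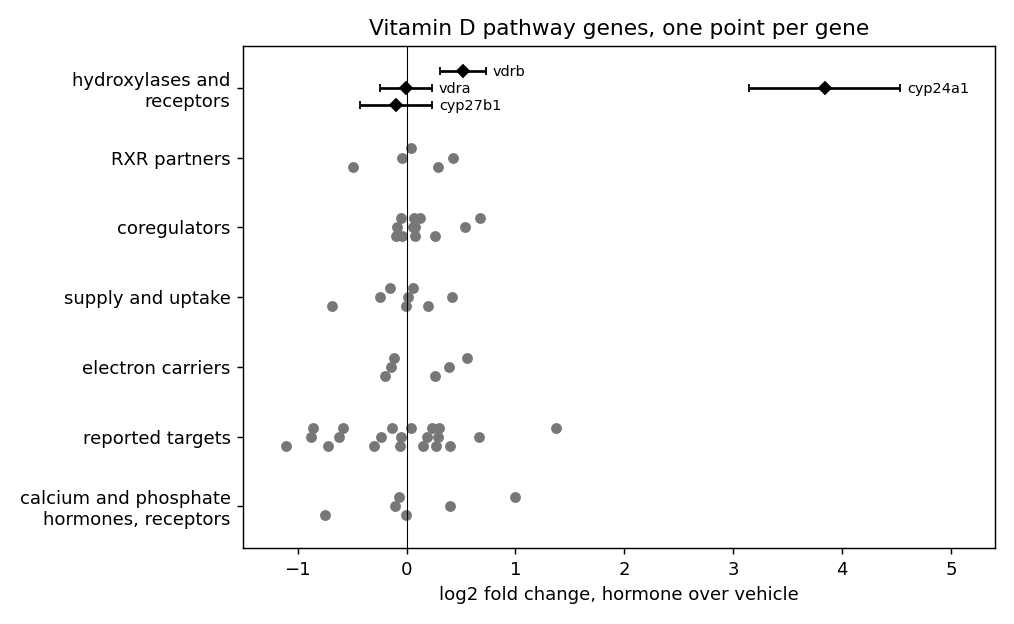
Fitted log2 fold change, hormone over vehicle, for the hydroxylases and receptors (diamonds with 1 SE; cyp27b1 with both records summed) and for the measured genes of 6 lists, 1 gray point per gene. All listed genes lie between -1.5 and 1.5, while cyp24a1 lies at 3.84.

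Genes adjacent to the members in the RefSeq assembly GRCz12tu, up to 3 protein-coding genes to each side, were examined after the members' values were seen. All 5 measured neighbours of cyp24a1 had overlapping groups, with log2 fold changes from -0.13 to 0.15, among them eya2 next to it at 0.08 and nat8l2 on the other side at -0.07. Over all 4 genes, 15 of 24 neighbours were measured and none passed edgeR's test. The groups did not overlap in 3 of the 15, against 13.3% of all records: slc11a2, near cyp27b1, and eif4bb, near vdrb, were higher with hormone, and bin2b, near vdrb, was lower.

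Likeness of pattern was measured by Pearson's r of log2 CPM across the 6 libraries, over 13242 records with a mean of at least 5 CPM, as a description: all genes share the same libraries, and with so many records high values occur. The records most like cyp24a1 were one listed as slc16a8 that RefSeq now gives to pdap1a (r = 0.994), the small GTPase genes rac1a, listed as rac1 (0.991), and rac3b (0.985), rdh20, listed as retinol dehydrogenase 10-like (0.988), and dync2h1, for a ciliary dynein chain (0.985). Most of them had a far smaller range, the pdap1a record standing at 37.6, 40.3 and 42.6 CPM with hormone, against 26.0, 26.8 and 29.7 CPM with vehicle. The rdh20 record came nearer in size, at 9.74, 18.7 and 17.2 CPM with hormone, against 2.93, 3.70 and 5.0 CPM with vehicle. Of the members, vdrb ranked 135 for likeness to cyp24a1 (r = 0.934), vdra 3804 (0.350) and the Ensembl record of cyp27b1 5582 (0.126), while cyp27c1 ranked 172 (0.921). The pattern of cyp24a1 holds its hormone difference, known beforehand, so a high r partly restates that difference and is no further result.

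The records most like vdrb were the heat shock gene hspa4a (r = 0.997), the ubiquitin ligase gene rnf146 (0.995) and b2m (0.994), the light chain of MHC class I. For vdra they were the inflammatory caspase gene caspa (0.999), the iron-sulfur cluster gene isca1 (0.999) and the matrix gene emilin1b (0.991). For the Ensembl record of cyp27b1 they were sc:d0347 (0.995), si:ch73-95l15.5, listed as wu:fc41e03 (0.992), and the mitochondrial ubiquitin ligase gene mul2, listed as mul1a (0.991). The other record of cyp27b1 itself ranked only 1387 for likeness to the Ensembl record (r = 0.838). Likeness to the sum of both records was not computed, so these names describe the Ensembl record alone. No record was shared between these lists and that of cyp24a1.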

How the data were processed

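RNA-seq of 6 zebrafish RPE samples was used. Per the labels' protocols, RPE was dissected, RNA taken with a column kit with DNase, libraries made with an amplification kit and all 6 run in 1 lane. Per the submitters' processing notes, tools included Bowtie 0.12.7 and edgeR; the transcript set and build were not given in those sources. The authors deposited raw counts per transcript record and library, RPKM as group means, a score per library (RPKM rounded to whole numbers), log2 columns (their edgeR fold change, vehicle over hormone, and mean CPM) and p-values of the authors' test, which were not used. A nameless line that holds the column totals was left out. Each of the 18315 records reached 1 CPM in 3 or more libraries, and genes below that were not analysed here.

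Counts were fitted with edgeR 4.0.16 in R 4.3.3 (TMM, filterByExpr, quasi-likelihood test, Benjamini-Hochberg over all records); the SE is the log2 fold change over the square root of F. CPM and RPKM use TMM factors, and likeness a prior count of 2. DESeq2 1.42.0 was an alternative. The fits were tested on simulated data with records drawn independently, which does not cover differences shared by many records of a library. File symbols were updated through the RefSeq accession or LOC number of assembly GRCz12tu (12528 and 1803 records); of several records with 1 symbol, list genes were read from that with most reads, and cyp27b1 from the record that bears the symbol, with its sum over both records beside it. Genes were named by list and role, by likeness to a member (5 records for cyp24a1, 3 for the others), or as marked. The members and lists were chosen with earlier results of these data known. No sequences are shown, as none were in the sources used here.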

Additional observations from a re-analysis of the deposited data

How the results depend on the processing

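The log2 fold changes of cyp24a1, cyp27b1, vdra and vdrb moved by less than their spread between replicates under every setting tried. Settings were RLE scaling, total count scaling, DESeq2, no filter, a mean of at least 5 CPM, the replicate block and leaving out each library. For cyp27b1 they also included both records summed, an alternative chosen after seeing the data. Leaving out 1 of 3 libraries can hardly move a log2 group mean by more than that spread, so there it is no check. With 1 library left out the log2 fold changes ran from 3.425 to 4.711 for cyp24a1, or 10.7- to 26.2-fold. They ran from -0.427 to 0.229 for cyp27b1, -0.161 to 0.194 for vdra and 0.369 to 0.74 for vdrb. The directions of cyp27b1 and vdra thus turned. The authors' deposited mean RPKM lay within 1 SD of every mean level per length. It rests on the same counts and lengths without TMM factors, so this is no independent check. Calls over all records numbered 1 in edgeR's main setting, 8 with total count scaling, 292 with DESeq2 and 0 with the replicate block, and 0 to 105 with 1 library left out, the 105 without hormone replicate 1 and 0 without any other; the cause was not tested. Calls among the 58 list genes numbered 0 in edgeR under every alternative and 2 with DESeq2. Among the named list genes, a direction turned only with a library left out: rxrba ran from -0.139 to 0.047, rxrbb from -0.04 to 0.18, fdx2 from -0.28 to 0.091 and calb1 from -0.793 to 0.733. With a prior count of 0.5, 1 of the 3 records most like cyp27b1 was kept, and all of those of the other members. The replicate numbers share no source in the labels, and deviations of same-numbered libraries correlated at 0.463, -0.395 and 0.105, so they were not taken as pairs; with the replicate block cyp24a1 had a log2 fold change of 3.939. Per 1000 CPM of RPE markers, cyp24a1 averaged 7.77 with hormone and 1.18 with vehicle, and without rpe65a, an alternative chosen after seeing the data, 16.5 with hormone and 1.78 with vehicle. Depth limits cyp27b1 most, with 42 to 166 counts per library over both records.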
